A study of Homo sapiens with 3 samples.

Results

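Among the 21 genes of the RGS family, 6 had a called H3K27ac summit within 50 kb of the gene span in H1299 cells: RGS20, RGS17, RGS19, RGS6, RGS9 and RGS12. These 6 genes are described here, out of 20037 protein-coding genes of the RefSeq annotation (GRCh38.p14). H1299 is a cell line grown from a human lung tumour, and the labels give its type as lung adenocarcinoma. CUT&RUN was used, a method in which a nuclease tethered through an antibody frees the DNA around the bound protein for sequencing. The series has 1 library for H3K27ac (the acetyl mark on lysine 27 of histone H3 that active enhancers and promoters carry), 1 for the transcription factor SP1, and 1 with IgG as negative control. No treatment or genotype beyond the cell line is given, the IgG library was not analysed here, and with 1 library per antibody no value below has a replicate or a p-value.

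RGS proteins end signalling through G protein-coupled receptors by speeding GTP hydrolysis on G protein alpha subunits. They fall into subfamilies by their domains. The RZ proteins, encoded by RGS17, RGS19 and RGS20, are short, carry a string of cysteines near the amino terminus and act on alpha subunits of the inhibitory group, including the one encoded by GNAZ. The R7 proteins, among them RGS6 and RGS9, hold a domain that binds the G protein beta subunit encoded by GNB5. RGS9 ends the light response in photoreceptors and acts in the striatum. RGS12, of the R12 subfamily, is a large scaffold with further protein-binding domains. SP1 is a zinc-finger factor that binds GC boxes, which are common in promoters. The title of the series joins SP1, super-enhancers and the expression of RGS20.

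The authors deposited, for each antibody, a list of summits and a list of ranked regions. A summit is the single base at the top of a peak. Its score is −log10 of either the p-value or the q-value of that peak, and the files leave unsaid which. There were 3201 H3K27ac summits (median score 5.01) and 5570 SP1 summits (median score 6.17). A region is 1 peak or several joined peaks with a rank, 1 being best, and the signal behind the rank is not in the files. There were 2710 H3K27ac regions, of which 98 joined 2 or more peaks, and 2356 SP1 regions. Read depth is unknown, so the number of summits of one antibody says nothing about the amount bound relative to the other. An H3K27ac summit lay within 50 kb of 15.7% of all protein-coding genes. Of 8 lung epithelial markers 1 (KRT7) had one, which is near that share. NKX2-1, SFTPB, SFTPC, NAPSA, EPCAM, CDH1 and KRT18 had none. Of the other markers, 0 of 5 mesenchymal, 1 of 4 blood (PTPRC) and 2 of 3 neuronal genes (SNAP25 and RBFOX3) had one, so the H3K27ac list did not set the labelled cell type apart.

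The members were chosen by the H3K27ac summits, so their number is a description. Of all protein-coding genes, 15.7% had an H3K27ac summit within 50 kb. Inside the span 4 RGS genes had one (RGS20, RGS17, RGS6 and RGS12), against 5.66% of all genes, and each of the 4 spans also overlapped a ranked H3K27ac region, against 4.74%. Within 20 kb RGS19 was added (9.91% of all genes), and within 100 kb RGS9 and RGS22 (24% of all genes). The member nearest to the limit was RGS9, with its summit 36.1 kb from the span. The next gene outside it was RGS22, with a summit of score 7.27 at 58.6 kb, inside the gene SPAG1. All 3 RZ genes were members, as were 2 of 4 R7 genes and 1 of 3 R12 genes. None of the 10 R4 genes was, and the nearest H3K27ac summit to any of them was 269.8 kb from RGS8. Long spans also went with H3K27ac: of protein-coding genes spanning 100 kb or more, 29.2% had a summit within 50 kb, against 13.9% of those of 10 to 100 kb and 11.1% of those under 10 kb. For SP1 the shares in the same order were 37.6%, 42.7% and 40.1%. Of the 9 RGS genes of 100 kb or more, 4 were members, namely RGS20, RGS17, RGS6 and RGS12.

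**Figure D1:**
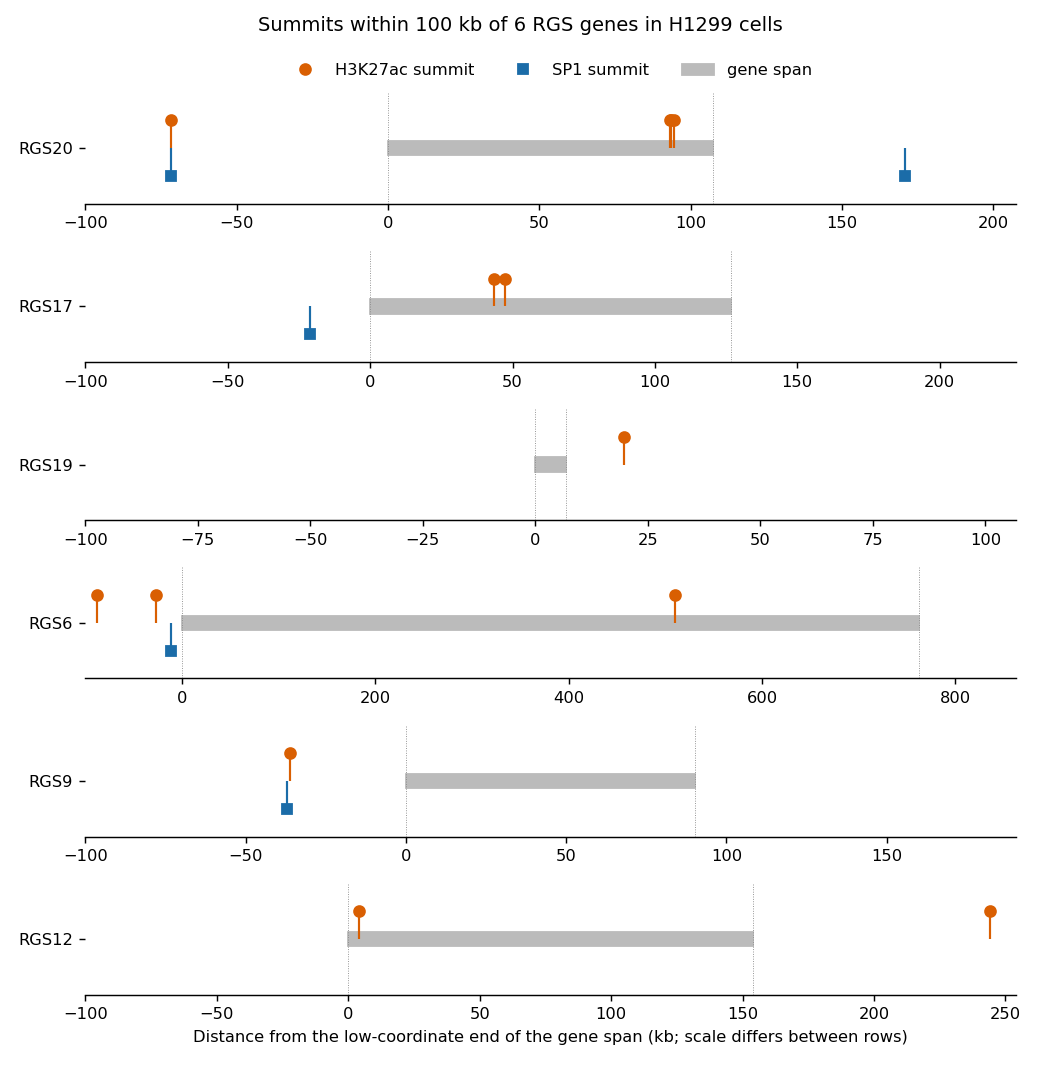
H3K27ac summits (circles, above) and SP1 summits (squares, below) within 100 kb of the span (grey bar) of each of the 6 RGS genes, by distance in kb from the low-coordinate end of the span. H3K27ac summits lie inside 4 of the spans, and no SP1 summit lies inside any of them.

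Promoter sequences show how GC boxes stood with the SP1 calls at these loci. The sequences are the 250 bases before an annotated start, from RefSeq (GRCh38.p14), 5′ to 3′ on the strand of the gene, with GC boxes (GGGCGG, or CCGCCC for the other strand, overlapping copies included) in capitals. RGS17 (chr6:153131283-153131532, minus strand), RGS19 (chr20:64079965-64080214, minus strand) and RGS12 (chr4:3292771-3293020, plus strand, the start nearest to its H3K27ac summit) are shown as the member genes with a start of 4 or more GC boxes, each by its start with the most, and none had an SP1 summit within 100 kb of the start. FBXO5 (chr6:152983580-152983829, minus strand) is shown as the neighbour with the highest SP1 score, and OPRL1 (chr20:64092438-64092687, plus strand) as the start with the H3K27ac summit counted for RGS19.
RGS17: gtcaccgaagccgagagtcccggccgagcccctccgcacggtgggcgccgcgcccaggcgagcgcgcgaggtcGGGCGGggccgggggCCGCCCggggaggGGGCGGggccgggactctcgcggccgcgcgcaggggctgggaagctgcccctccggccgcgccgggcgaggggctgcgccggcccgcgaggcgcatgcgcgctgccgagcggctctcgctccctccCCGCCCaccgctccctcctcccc
RGS19: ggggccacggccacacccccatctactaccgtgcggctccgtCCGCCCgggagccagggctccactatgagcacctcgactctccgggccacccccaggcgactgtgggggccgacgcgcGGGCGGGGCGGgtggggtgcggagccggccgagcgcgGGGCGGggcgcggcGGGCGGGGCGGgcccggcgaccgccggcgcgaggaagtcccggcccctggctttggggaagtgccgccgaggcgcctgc
RGS12: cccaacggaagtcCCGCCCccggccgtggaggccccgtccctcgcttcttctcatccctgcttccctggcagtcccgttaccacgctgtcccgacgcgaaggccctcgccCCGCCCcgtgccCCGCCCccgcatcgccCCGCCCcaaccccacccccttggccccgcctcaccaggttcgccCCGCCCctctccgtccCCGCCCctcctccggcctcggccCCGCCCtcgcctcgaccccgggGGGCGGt
FBXO5: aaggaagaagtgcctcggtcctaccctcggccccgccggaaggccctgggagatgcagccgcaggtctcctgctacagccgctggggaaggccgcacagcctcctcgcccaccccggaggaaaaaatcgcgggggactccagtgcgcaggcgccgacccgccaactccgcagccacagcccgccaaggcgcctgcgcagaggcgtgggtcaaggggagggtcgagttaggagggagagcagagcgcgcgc
OPRL1: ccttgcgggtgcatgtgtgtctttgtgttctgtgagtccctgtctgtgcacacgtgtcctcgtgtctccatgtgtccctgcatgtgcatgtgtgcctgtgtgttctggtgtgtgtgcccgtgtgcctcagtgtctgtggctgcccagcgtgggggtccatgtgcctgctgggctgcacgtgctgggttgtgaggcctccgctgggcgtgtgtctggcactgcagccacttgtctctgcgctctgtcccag

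The window of RGS17 held 4 GC boxes, that of RGS19 held 6 and that of RGS12 held 8. Windows with 8 or more made up 0.779% of 22199 starts of protein-coding genes, and those with 6 or more 2.97%. The nearest SP1 summits were 147.9 kb from the start of RGS17, 201.1 kb from that of RGS19 and 133.5 kb from that of RGS12. They were chosen for their boxes and do not stand for all member starts. Of the 12 member starts in the promoter table, 7 held a box (58.3%) and 5 held none, against 53.7% of all starts with one. At RGS6 the 3 starts in the table held 1, 0 and 1 boxes, with SP1 76.6 to 77.9 kb away, and the start of RGS9 held 0, with SP1 at 37.0 kb. The first listed start of RGS6 is at 71932171, while its span, on the plus strand, begins at 71867335. A start at that end is not in the table, and SP1 was 11.8 kb from it. The other start of RGS19 held 4 boxes, and the other 4 starts of RGS12 held 2, 0, 0 and 0. The window of FBXO5 held no GC box, and neither did that of OPRL1. Over the genome, GC boxes did go with SP1 calls: 77.6% of 3040 starts with an SP1 summit within 1000 bases held at least 1, against 49.95% of 19159 starts with none. A box with no SP1 call was still the common case, since 19.8% of all starts with a box had an SP1 summit within 1000 bases. The start of FBXO5 was among the 22.4% of starts with SP1 that held no box. Of 39 starts of the 18 RGS genes in the promoter table, 17 held a GC box (43.6%, against the 53.7% of all starts), and none of those 17 had an SP1 summit within 1000 bases. By gene, 0 of 18 RGS genes had an SP1 summit at a start (Wilson upper limit 17.6%), against 14.9% of protein-coding genes.

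RGS20 (chromosome 8, 53851795 to 53959303, 107.5 kb) had the highest H3K27ac scores of the 6 genes. Inside its span were summits at 53944963, 53945418 and 53946201, with scores of 9.15, 5.69 and 7.64. The highest of them exceeded 97.3% of all H3K27ac scores, and the lowest exceeded 68.9%. They lay 93.2 to 94.4 kb from the low-coordinate end of the gene, near its other end, and 1238 bases separated the first from the last. Whether these bases are exon or intron was not determined, since the tables used give spans and starts only.

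The deposited list joined these 3 peaks into 1 region, at 53944875 to 53946336, with rank 61 of 2710, or 2.25% of the list. Of the regions that ranked better, 8 consisted of a single peak. At 1462 bases it was short for a region of joined peaks: 20 of the 98 were shorter, and their median length was 6849 bases. Regions of 3 or more peaks numbered 15, and 12 of the others ranked better than that of RGS20. Of these 15 regions, 12 overlapped no protein-coding span. Distances to genes and lncRNA genes do not enter this count, and the same share over all 2710 regions is not given here. RGS20 was 1 of 3 protein-coding genes, among 20037, that overlapped a region of 3 or more peaks. The other 2 were VMP1, an autophagy gene, with a region of 3460 bases at rank 9 and a top score of 12.4, and FMNL2, which encodes a formin of the actin cytoskeleton, with 2627 bases at rank 13 and a top score of 9.25. None of these 3 genes had an SP1 summit in its span. The nearest SP1 summit was 76.3 kb from the region of RGS20, 105.4 kb from that of VMP1 and 210.8 kb from that of FMNL2. By the measure of a whole H3K27ac region of at least 3 peaks inside the gene with no SP1 summit in the span, VMP1 and FMNL2 were thus the only genes like RGS20 in these 2 libraries.

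RGS17 (chromosome 6, 153004459 to 153131282, 126.8 kb) was the only other member with a region of joined peaks. Its H3K27ac summits at 153048073 and 153051726 scored 3.92 and 3.16. These are low values, above only 13.6% and 1.53% of the list. The peaks lay 3653 bases apart and were joined into a region of 3825 bases at rank 125 of 2710 (4.61%). Thus the RGS17 region was longer than that of RGS20 but rested on 2 weak peaks, with no summit called between them. Among the 98 regions of 2 or more peaks, RGS20 stood at place 53 and RGS17 at place 95. Regions of 2 or more peaks overlapped the spans of 0.14% of protein-coding genes, 28 in number, and both of the RGS genes among them belonged to the RZ subfamily.

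**Figure D2:**
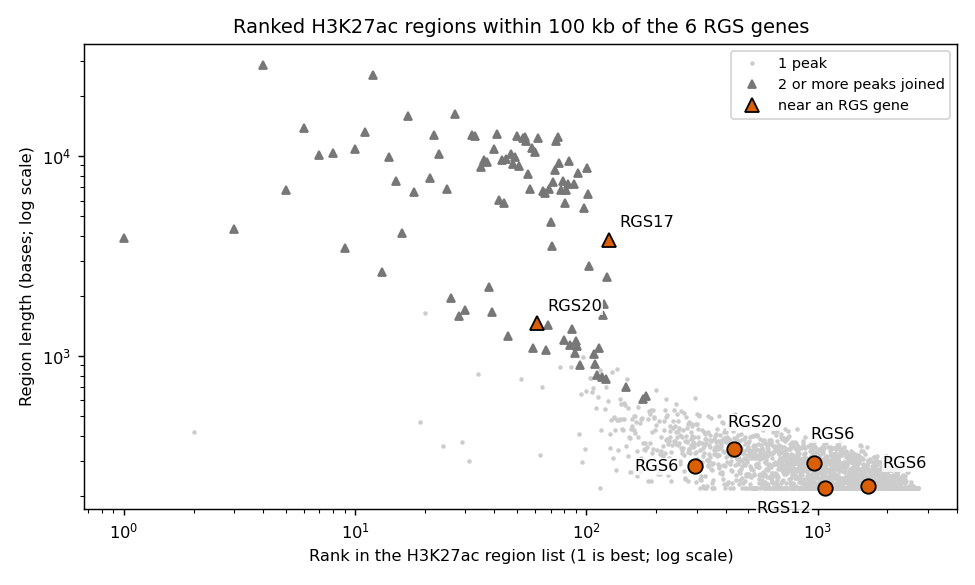
Length in bases against rank for all 2710 H3K27ac regions (both axes log scale), with regions of 1 peak as dots, regions of joined peaks as triangles, and those within 100 kb of the 6 RGS genes in orange. The regions of RGS20 (rank 61) and RGS17 (rank 125) are the only ones of the 7 orange regions with joined peaks.

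RGS19 (chromosome 20, 64073181 to 64079964, 6.78 kb), the third RZ gene, had no H3K27ac summit in its span and no ranked region within 100 kb. It is a member through 1 summit at 64092802, with a score of 4.24, above 23.3% of the list and 12.8 kb from the gene. That summit lay 114 bases from an annotated start of OPRL1, the neighbouring gene, which encodes the nociceptin receptor, itself coupled to inhibitory G proteins. The mark counted for RGS19 was therefore at a start of another gene. The nearest SP1 summit was 201.1 kb from the span.

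Among the R7 genes, RGS6 (chromosome 14, 71867335 to 72630029, 762.7 kb) had 1 H3K27ac summit inside its long span, at 72377654, with a score of 4.64 and a region at rank 1655. The summit lay 444.1 kb from the nearest start of RGS6 in the promoter table. Outside the span, summits at 71840548 (26.8 kb away, score 5.64, rank 963) and 71779669 (87.7 kb away, score 4.70, rank 296) had regions of their own. The nearest protein-coding genes to these summits, other than RGS6, were DPF3 (a chromatin remodelling subunit), LOC124903404 and SIPA1L1 (a regulator of Rap signalling). RGS9 (chromosome 17, 65137370 to 65227703, 90.3 kb) had 1 H3K27ac summit, at 65101278, with a score of 4.44 and no ranked region. It lay in the lncRNA gene LOC100507002, between GNA13, which encodes an alpha subunit of another group and was 44.5 kb away, and RGS9.

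RGS12 (chromosome 4, 3285891 to 3439913, 154.0 kb) had the H3K27ac summit closest to a start of its own gene among the 5 members with starts in the promoter table (RGS20 has no entry there). Its summit at 3290002 scored 4.68, above 38.9% of the list, and its region ranked 1077. The summit fell between annotated starts of the gene, 4111 bases past the first and 3019 bases before the next. A second summit, at 3529853 with a score of 3.55, lay 89.9 kb outside the span, inside LRPAP1, which encodes a receptor chaperone, and 2296 bases from a start of that gene.

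Over all 6 members there were 13 H3K27ac summits within 100 kb, 7 of them inside the spans. Their scores ran from 3.16 to 9.15 with a median of 4.68, and 8 of the 13 were at or below the median of the whole list. All 4 summits around RGS20 were above it, as was 1 of RGS6. Of the 13, 10 lay in a ranked region, against 88.3% of all H3K27ac summits. Of the 9 on chromosomes with annotated starts in the promoter table, 2 lay within 2500 bases of a start (OPRL1 and LRPAP1), against 5.92% of the whole list, and neither start belonged to an RGS gene. No RGS gene of the 18 in the table had an H3K27ac summit within 1000 bases of a start, against 0.757% of protein-coding genes.

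**Figure D3:**
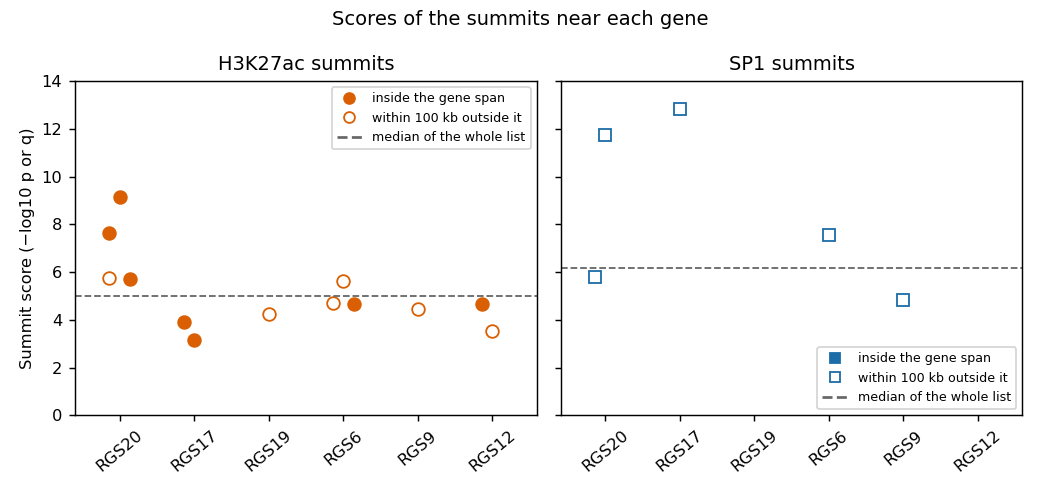
Score (−log10 p or q) of every H3K27ac summit (left) and SP1 summit (right) within 100 kb of the 6 RGS genes, with filled symbols inside the gene span and open symbols outside it; dashed lines mark the list medians of 5.01 and 6.17, and points of a gene are spread sideways only so that they can be seen. RGS20 has the highest H3K27ac score, 9.15, and RGS17 the highest SP1 score, 12.8.

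SP1 was not used to choose the members, and no SP1 summit lay inside any of the 6 spans. Of all protein-coding genes, 12.7% had one inside, and with 6 genes a count of 0 is no detectable shortage against that share. RGS20, RGS17, RGS6 and RGS12 had H3K27ac but no SP1 inside the span, as did 4.01% of all genes. This was the usual state of genes with H3K27ac inside, 803 of 1135. No SP1 region overlapped any of the 21 RGS spans (Wilson upper limit 15.5%), against 4.51% of all genes, a share below that limit. Within 20 kb RGS6 alone of the members had an SP1 summit (30.3% of all genes). Within 50 kb, SP1 summits were found at 3 of the 6 members (RGS17, RGS6 and RGS9), against 41.1% of all protein-coding genes. Over the 6 windows reaching 100 kb beyond each span there were 5 SP1 summits, or 0.204 per 100 kb (exact Poisson interval 0.0663 to 0.477, counting error only). The other 15 RGS genes had 0.367 per 100 kb (0.210 to 0.596) and all protein-coding genes 0.461. The value of the other 15 genes rests on 16 counts of 15 summits, since 1 summit lay in the windows of both RGS4 and RGS5. Its interval makes no allowance for that. In the value over all genes, overlapping windows count an SP1 summit more than once (24434 counts of 5570 summits), so loci dense in genes weigh more. The interval of the members includes that value, so no shortage of SP1 was detectable with 5 summits. The same windows held 0.531 H3K27ac summits per 100 kb (0.283 to 0.908), a value set by the choice of members, against 0.115 over all genes, where overlapping windows count a summit more than once.

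The strongest SP1 summits near members lay close to an annotated start or a span end of another gene. The summit nearest to RGS17, at 152983393, scored 12.8, above 87.7% of the SP1 list. It was 21.1 kb from RGS17 and 186 bases from a start of FBXO5, which encodes an inhibitor of the anaphase-promoting complex. It was 64.7 kb from the nearer H3K27ac summit of RGS17. On the high-coordinate side of RGS20, the SP1 summit at 54022623 scored 11.7, and lay 63.3 kb from RGS20. The high-coordinate end of the span of TCEA1, a gene for an elongation factor of RNA polymerase II, was 175 bases away. The summit falls in the read-through gene LYPLA1-TCEA1.

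The other 3 SP1 summits were 11.8 kb or more from the ends of the protein-coding genes named beside them. At 71855579, 11.8 kb before the span of RGS6, a summit scored 7.56 with a region at rank 595 of 2356. The nearest H3K27ac summit was 15.0 kb from it. Near RGS9, the SP1 summit at 65100358 scored 4.83, above 26.1% of the list, and lay 920 bases from the H3K27ac summit, in the lncRNA gene LOC105371864. On the low-coordinate side of RGS20, at 71.7 kb, an SP1 summit at 53780095 (score 5.78, region rank 1433) and an H3K27ac summit at 53780083 (score 5.76, region rank 436) lay 12 bases apart inside ATP6V1H, which encodes a proton pump subunit. The SP1 summit was 63150 and 64552 bases from the ends of that gene. RGS12 and RGS19 had no SP1 summit within 100 kb, and the nearest to RGS12 was 126.3 kb away.

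With 500 bases as the limit, summits of both libraries thus lay together at 1 member, RGS20, and there outside the gene. This was 1 of the 13 H3K27ac summits near members. Of all H3K27ac summits, 4.15% had an SP1 summit that close, and of all SP1 summits 2.41% had an H3K27ac summit that close. Within 2000 bases of SP1 lay 2 of the 13, the other at RGS9, against 5.87% of all H3K27ac summits. Within 50 kb lay 3 of the 13, the third at RGS6, against 24.5%, a share close to that of the members. Of the 5 SP1 summits near members, 3 had an H3K27ac summit within 50 kb. That count is a description, since the members were chosen for H3K27ac at that distance, and the share over the SP1 list was 15.6%. The H3K27ac region inside RGS20, the one of the title's gene, was 76.3 kb from any SP1 summit. Such a distance was not rare. The median distance from an H3K27ac region to SP1 was 192.9 kb over the list. Over the 100 best-ranked it was 64.3 kb, with quartiles of 0 and 252.1 kb, so RGS20 lay somewhat beyond that median. At the shorter limit of 50 kb, 78.6% of all H3K27ac regions, and 52% of the 100 best-ranked, lay farther from an SP1 summit. An SP1 summit lay inside 35 of the 100 best-ranked H3K27ac regions, against 72 of all 2710 (2.66%). The RGS20 region, at rank 61, is among those 100 and held none. Lengths were not matched in these shares, and a longer region has more room for a summit. The median length was 234.5 bases over all regions. It was 6849 bases over regions of joined peaks, most of which were among those 100, and the RGS20 region had 1462. A super-enhancer is usually defined by a limit on the ranked signal, and the deposited list does not mark where such a limit lies, so whether rank 61 falls within it was not determined. The files hold no RNA, no perturbation of SP1 and no signal below the calling threshold.

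Across the family, SP1 summits within 50 kb were about as frequent at RGS genes as at protein-coding genes in general. At shorter distances the RGS shares were lower, but no difference was detectable with 21 genes. Inside the span, 1 of 21 (4.76%, Wilson interval 0.846 to 22.7) had one, against 12.7% of all genes, which the interval includes. Within 20 kb, 3 of 21 RGS genes (14.3%, Wilson interval 4.98 to 34.6) had one, against 30.3% of all genes, a share that the interval includes. Within 100 kb, 11 of 21 (52.4%) had one, against 52.6%. Within 50 kb, 9 of 21 RGS genes (42.9%, Wilson interval 24.5 to 63.5) had an SP1 summit, which is close to the 41.1% of all protein-coding genes. Of these 9, 6 were not members: RGS3, RGS4, RGS5, RGS11, RGS14 and RGS22. Neighbouring genes are not independent, since the SP1 summit at 163096806 (score 5.46) lay 20004 bases from RGS4 and 45.5 kb from RGS5. Both libraries were within 50 kb of 3 of 21 RGS genes, RGS6, RGS9 and RGS17 (14.3%, Wilson interval 4.98 to 34.6). The share of all protein-coding genes was 7.72%, which the interval includes. All 3 are members, chosen for H3K27ac at that distance, so their number is a description.

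**Figure D4:**
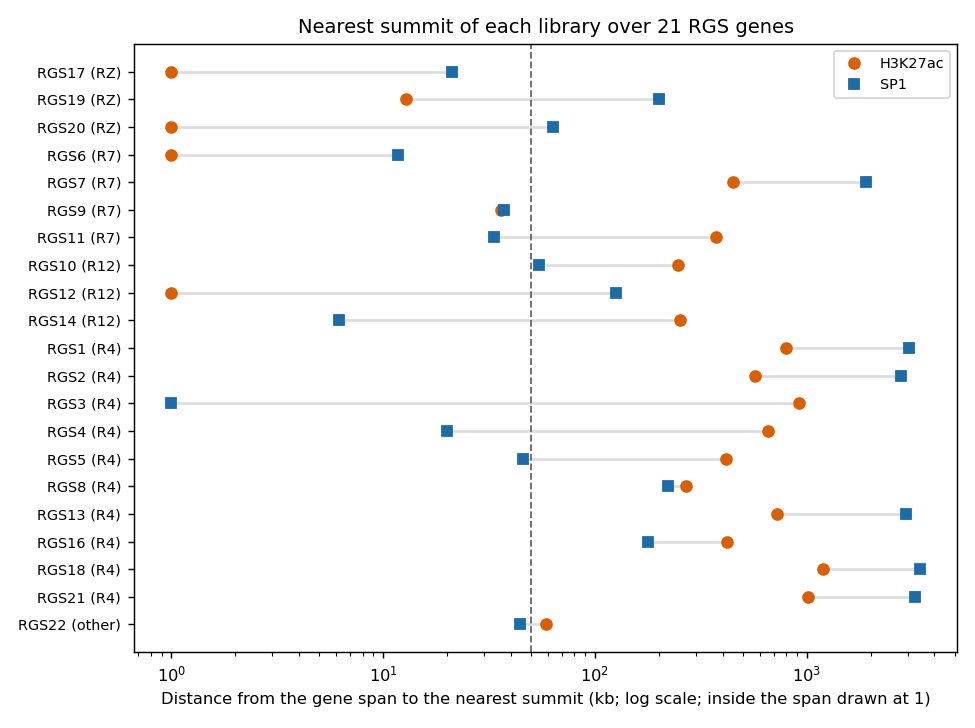
Distance in kb (log scale) from the span of each of the 21 RGS genes, grouped by subfamily, to the nearest H3K27ac summit (circle) and SP1 summit (square), with summits inside the span drawn at 1 and the dashed line at 50. The 10 R4 genes have no H3K27ac summit left of the line, and 3 of them have an SP1 summit there.

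RGS3, an R4 gene, was the only one of the 21 with an SP1 summit inside its span, at 113593722 with a score of 4.62, and 12.8 kb from its nearest start. RGS14, a scaffold of the R12 subfamily, had the most, with 6 SP1 summits within 100 kb, of which the nearest was 6178 bases away with a score of 4.52. RGS11, an R7 gene, had summits of 8.06 and 6.16 at 33.4 kb and 39.0 kb, at starts of FAM234A and LUC7L. RGS10 had 1 of 5.18 at 54.2 kb and RGS22 1 of 5.13 at 44.4 kb. Of 14 distinct SP1 summits around the non-members on chromosomes in the promoter table, 9 lay within 1000 bases of an annotated start, in each case of another gene, against 43.1% of all SP1 summits. The farthest from SP1 were RGS1, RGS2, RGS13, RGS18 and RGS21, a cluster on chromosome 1. Of these RGS2 was the closest to a summit, with SP1 at 2797 kb and H3K27ac at 568.7 kb.

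**Figure D5:**
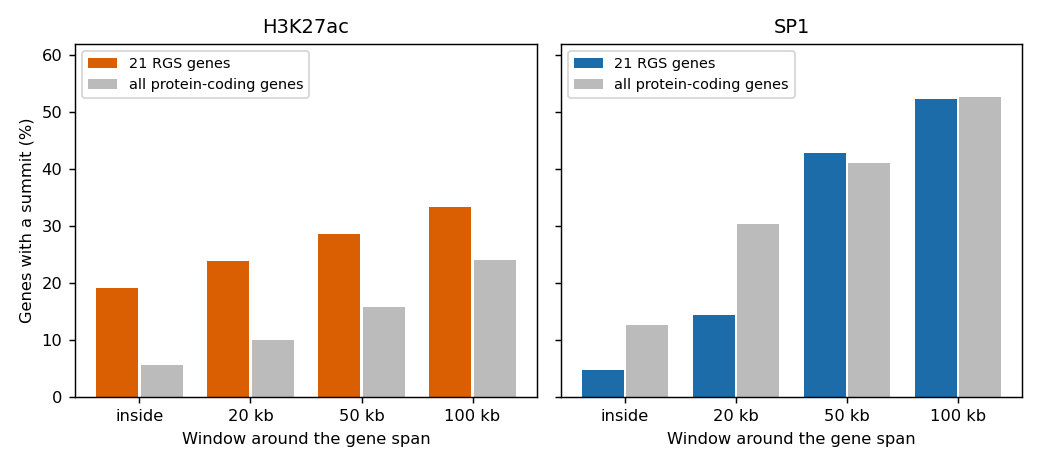
Percentage of genes with an H3K27ac summit (left) or an SP1 summit (right) inside the gene span or within 20, 50 or 100 kb of it, for the 21 RGS genes (coloured bars, left of each pair) and all 20037 protein-coding genes (grey bars). For SP1 the RGS share is 4.76% inside spans and 42.9% at 50 kb, against 12.7% and 41.1% of all genes. The Wilson interval of each of these RGS shares includes the share of all genes.

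The G proteins on which RGS proteins act were next set beside them. Of the 7 genes for alpha subunits of the inhibitory and transducin group, the substrates of the RZ proteins among them, none had an H3K27ac summit within 50 kb and 2 had SP1. These were GNAI2, with a highest SP1 score of 9.10 at 39.9 kb and another summit inside the gene, and its neighbour GNAT1, with 7.46 at 29.2 kb. The summit of GNAT1, at 50226902, is also counted for GNAI2, whose span begins close by at 50227068. The 2 genes are therefore not independent cases. GNAZ, the substrate after which the RZ proteins are named, had its nearest SP1 summit at 267.1 kb. Of the 8 other alpha subunit genes, 6 had an SP1 summit, led by GNA15 with 17.5 and GNA13 with 16.4, and 2 had H3K27ac, GNA13 (4.44, the summit also counted for RGS9) and GNAQ (4.24, inside the gene). Among 5 partners of the R7 proteins, only RGS9BP, the anchor of RGS9 in photoreceptors, had a summit, an SP1 summit with a score of 14.6, 0.329 kb from the gene. Of 9 adenylyl cyclase genes, 5 had SP1 (ADCY2, ADCY4, ADCY6, ADCY8 and ADCY9, highest score 6.71) and 2 had H3K27ac (ADCY8 with 5.47 and ADCY9 with 4.53). With 41.1% of all genes having SP1 and 15.7% having H3K27ac at this distance, these counts single out no list.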

How the data were processed

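The summit lists give, as the authors deposited them, a −log10 p-value or q-value per summit, and the region lists a rank, used here as a score with no unit. Summit names look like output of MACS, and region names like output of ROSE. The build was hg38, and the tools included cutadapt 2.5 and deepTools 3.4.1, per the submitters' processing notes. Aligner, caller, settings and control: not given in the sources used here.

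Coordinates are 1-based. Gene spans, starts and promoters came from RefSeq (GRCh38.p14). Of 20037 protein-coding genes, 15843 had a start in the promoter table, among them 18 of 21 RGS genes, without RGS11, RGS20 and RGS22. Distances, counts, Wilson and Poisson 95% intervals were computed with Python 3.11.15, pandas 2.3.3 and scipy 1.17.1. Only the finding of genes with a summit or region within 50 kb was tested on simulated data. With 1 library per antibody there is no test, and the intervals cover counting error only.

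Members and lists were chosen with earlier results of these data known. Named are the 6 members, RGS genes with a summit within 100 kb, genes holding or nearest to the members' summits, genes like RGS20, and partner genes with a summit within 50 kb (of a list with over 6, the highest 4 by H3K27ac and 2 by SP1). GNAZ, marker genes, lncRNA genes and neighbours of other RGS genes were named after their values were seen. Alternatives covered windows, scores, ranks, overlap and each member left out.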

Additional observations from a re-analysis of the deposited data

How the results depend on the processing

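No paired analysis was possible because each antibody had a single library. Of 30 alternative values for 7 results, 21 stayed within 1.5 times the count, or within the 95% interval of the value, and 9 moved. For the rank of the RGS20 region, the interval treated the rank as a count of regions, so it is no spread of that rank. The labels for that result therefore carry no weight. With summits above the median score of their list, RGS genes with H3K27ac within 50 kb numbered 2 (RGS20 and RGS6), those with SP1 numbered 4, and H3K27ac summits per 100 kb of the members' windows were 0.204. With a window of 20 kb, 3 RGS genes had SP1, and inside the span 1 had it. Members with summits of both libraries together numbered 2 at 2000 bases and 3 at 50 kb. The RGS20 region stood at 54.1% of the list when only regions of more than 1 peak were ranked, and at 1.62% when only the 1911 regions within 100 kb of a protein-coding gene were. Smaller windows, fewer summits and shorter lists move these values by construction. Leaving out each member moved no rate out of its interval: without RGS20 the H3K27ac rate was 0.420 per 100 kb and the SP1 rate 0.140. Every member left still holds an H3K27ac summit by the rule, and the wide SP1 interval rests on 5 summits. Staying inside the interval was therefore nearly fixed in advance and is no sign of stability. What depth limits cannot be seen, since it is unknown.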

Other observations

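The stretch around RGS14 held the densest SP1 calls of any RGS gene and no H3K27ac summit within 100 kb. These neighbours were chosen after their values were seen. The highest score, 17.6, was at 177426154 in GRK6, which encodes a kinase that shuts off G protein-coupled receptors, at 522 bases from an annotated start and 53.6 kb from RGS14. MXD3, a partner gene of the MYC network, had summits of 13.6 and 7.04, at 596 and 94 bases from a start. LMAN2, a lectin gene of the secretory pathway, had the summit nearest to RGS14, with a score of 4.52 at 78 bases from its start.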
